A study of Homo sapiens with 18 samples.

Results

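Collagens are the main structural proteins of the extracellular matrix, and this account follows their transcripts in the human embryonic stem cell line H1. The family was taken as every gene whose symbol in the array's annotation reads COL, a number, A and a number, which gave 43 of the 18417 genes with a probe set of exactly 1 symbol. COL11A2 had 3 such probe sets, of which the one with the highest mean was used, and each other member had 1. A gene was tested where it lay above the 40th percentile of an array on at least 3 of the 18 arrays, which 32 collagens did. COL17A1 was not analysed here.

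The study crossed 2 states of H1 cells with 3 treatments, with 3 Affymetrix Human Gene 1.0 ST arrays in each of the 6 groups. The groups were embryoid bodies of 6 days carrying a lentiviral shRNA against KBTBD8, embryoid bodies with a lentiviral control shRNA and untransduced embryoid bodies, and the same 3 treatments in pluripotent cells. Embryoid bodies, which are free-floating aggregates in which stem cells begin to differentiate, were formed in AggreWell plates in APEL medium, and pluripotent cells were grown on Matrigel in mTeSR1. KBTBD8 recruits substrates to CUL3 ubiquitin ligases. All groups come from a single cell line, and the p-values measure the spread between these arrays, part of which may be technical.

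The arrays numbered 2 of the KBTBD8 shRNA groups of both states look exchanged and were read apart, so the fit used 16 arrays, and results that depend on this are also given with all 18. The pluripotency markers show the pattern: the mean log2 intensity of 15 of them was 8.58 and 8.64 on the KBTBD8 shRNA embryoid body arrays kept, and 9.44 on the one numbered 2, against 9.49 and 9.51 on the pluripotent arrays kept and 8.48 on the pluripotent array numbered 2. KBTBD8 itself had log2 intensities of 5.13 and 4.96 in pluripotent cells with its shRNA, against 6.39, 7.09 and 7.03 with the control shRNA, a fall of 1.79 (limma, SE 0.26, adjusted p = 0.000282). In embryoid bodies it had 4.86 and 4.66 with its shRNA, against 4.43, 4.79 and 5.04 with the control shRNA, and these ranges overlapped. The difference there was 0.01 (limma, SE 0.26, adjusted p = 0.998), so a lower KBTBD8 transcript was not seen in embryoid bodies.

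A collagen molecule is a triple helix of 3 alpha chains, each from a collagen gene. Fibrillar collagens (types I, II, III, V, XI, XXIV and XXVII) build the cross-striated fibrils of connective tissue and cartilage, and FACIT collagens sit on the surface of such fibrils. Type IV forms the sheet-like network of basement membranes, the first matrix made by the early embryo, and type VI forms beaded filaments around cells. The tested members were 10 of 11 fibrillar, 4 of 6 type IV, 7 of 10 FACIT, 3 of 5 type VI, 3 of 3 transmembrane and 2 of 3 short chain network genes, with COL18A1 (multiplexin), COL7A1 (anchoring fibril) and COL26A1 beside them. The 11 members below the filter were COL24A1, COL4A3, COL4A4, COL12A1, COL19A1, COL21A1, COL6A5, COL6A6, COL8A1, COL15A1 and COL28A1. Their log2 intensities ran between 3.05 and 5.49 over all arrays, and COL15A1, the one that reached the 40th percentile at all, did so on 2 arrays.

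The type IV genes lie in head-to-head pairs that share the DNA between their start sites, and the windows of the 2 tested pairs are shown because the values of the partners are given side by side further on. Both come from RefSeq (GRCh38.p14) and cover 250 bases before to 50 after the start of the gene named first, on the + strand, 5′ to 3′. Capitals mark bases that also lie in the same window of the partner, which starts on the opposite strand. The COL4A2 window lies at chr13:110307034-110307333 and shares 226 of its 300 bases with that of COL4A1, the start sites being 127 bases apart. The COL4A5 window lies at chrX:108439588-108439887 and shares 121 bases with that of COL4A6, the start sites being 380 bases apart.
COL4A2: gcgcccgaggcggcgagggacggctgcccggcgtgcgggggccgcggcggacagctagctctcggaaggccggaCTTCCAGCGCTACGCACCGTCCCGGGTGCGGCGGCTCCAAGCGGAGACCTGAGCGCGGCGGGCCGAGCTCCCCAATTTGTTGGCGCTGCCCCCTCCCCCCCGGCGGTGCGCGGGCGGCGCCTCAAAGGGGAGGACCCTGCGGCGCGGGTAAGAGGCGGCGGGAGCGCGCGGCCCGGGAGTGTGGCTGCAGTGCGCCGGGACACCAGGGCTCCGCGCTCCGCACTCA
COL4A5: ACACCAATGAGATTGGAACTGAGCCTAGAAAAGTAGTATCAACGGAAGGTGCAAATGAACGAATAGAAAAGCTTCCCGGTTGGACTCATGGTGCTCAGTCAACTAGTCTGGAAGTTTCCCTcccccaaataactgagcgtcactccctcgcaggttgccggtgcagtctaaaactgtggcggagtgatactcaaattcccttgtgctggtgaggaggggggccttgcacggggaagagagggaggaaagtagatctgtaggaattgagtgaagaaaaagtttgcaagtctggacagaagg
The COL4A2 window had 77.7% G and C, and the COL4A5 window 49.3%. Searched on both strands, the letters CCAAT occurred at 1 place in the COL4A2 window and at 2 in the COL4A5 window, GGGCGG at 1 place in the COL4A2 window and 0 in the COL4A5 window, and TATAAA in neither. None of these motifs contains another. Of 35116 RefSeq windows of this length, 34.6% held CCAAT, 45.0% held GGGCGG and 11.5% held TATAAA. RefSeq windows were found for 31 of the 43 members.

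Collagens were called in both directions on differentiation. In untransduced cells the 4 tested type IV genes, COL2A1, COL11A1 and COL9A1 were higher in embryoid bodies, while the 3 tested type VI genes, COL14A1, COL5A2, COL1A1 and COL9A3 were among the lower. Chains of cartilage collagens went both ways: COL9A3, a partner of COL9A1 in type IX, was lower, and COL11A2 (−0.26), COL9A2 (−0.19) and COL10A1 (−0.16) were not called. By limma's test, with p-values adjusted over the 14209 genes tested, 7 of 32 collagens rose and 10 fell. That is 53.1% of the family, beside 52.2% of all genes tested (25.8% higher and 26.3% lower), so the share of collagens called was near the background. The median log2 difference was −0.17 for the collagens and −0.04 for all genes.

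**Figure D1:**
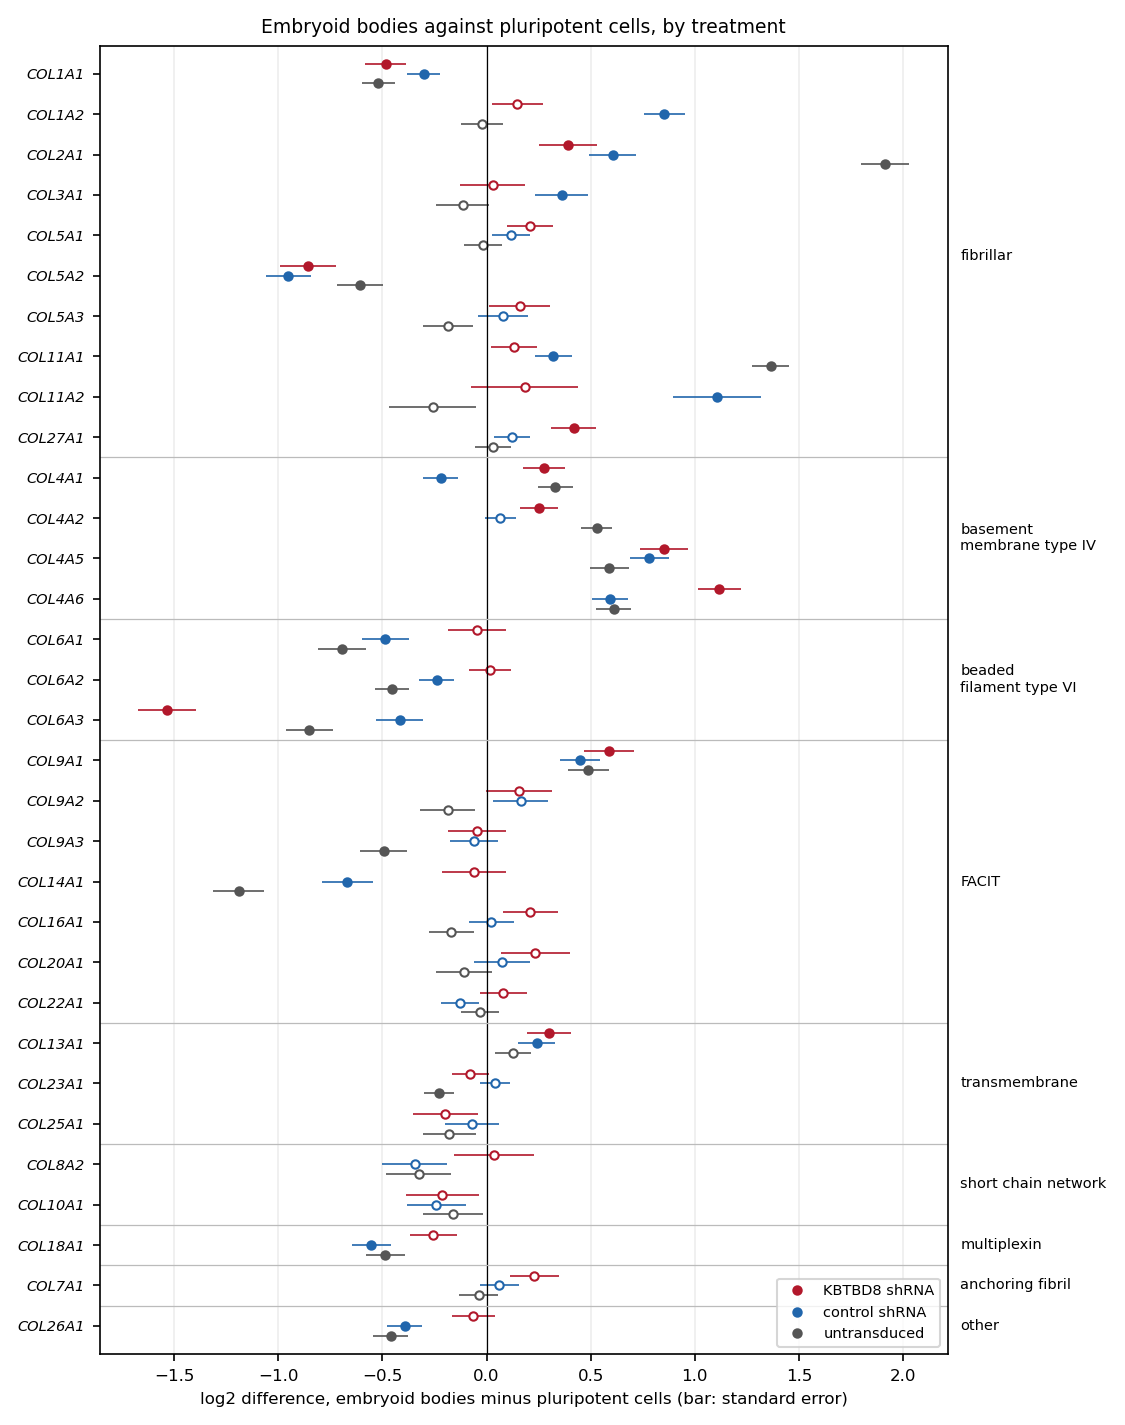
Log2 difference of embryoid bodies minus pluripotent cells for the 32 tested collagens, by class, with KBTBD8 shRNA (red, 16-array fit), control shRNA (blue) and no transduction (grey). Points are fitted differences, bars are standard errors, and filled points had an adjusted p under 0.05. COL2A1 and COL11A1 lie far to the right in untransduced cells (1.91 and 1.36), and COL6A3 lies farthest to the left with the KBTBD8 shRNA (−1.53).

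COL2A1 encodes the chain of type II collagen, the fibril of cartilage, notochord and vitreous. It had log2 intensities of 8.07, 7.94 and 8.22 in untransduced embryoid bodies, against 6.24, 6.34 and 5.92 in untransduced pluripotent cells. The groups were well apart, as were those of 56.7% of all genes tested, and the difference of 1.91 (SE 0.11, adjusted p = 9.93e-10 by limma) was a 3.77-fold rise. COL11A1, a chain of the type XI collagen found with type II in the same fibrils, had 7.82, 7.90 and 7.94 in untransduced embryoid bodies, against 6.74, 6.36 and 6.47 in pluripotent cells. It rose by 1.36 (SE 0.09), with every embryoid body array above every pluripotent one. COL9A1, a FACIT chain that coats type II fibrils, rose by 0.49 (SE 0.10).

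Among the genes that fell in untransduced embryoid bodies, COL14A1, a FACIT collagen of the fibril surface, changed by −1.19 (SE 0.12). Its log2 intensities were 5.53, 5.69 and 5.57 in embryoid bodies, against 7.17, 6.49 and 6.71 in pluripotent cells, without overlap. COL6A3, a chain of the type VI filament, had 4.89, 4.74 and 4.79 in embryoid bodies, against 5.40, 5.85 and 5.72 in pluripotent cells, a difference of −0.85 (SE 0.11). Its values in embryoid bodies are among the low ones of the array, and COL6A3 reached the 40th percentile on 10 of the 18 arrays. On the arrays kept it was higher in pluripotent cells within each treatment, so it entered the test largely through that state. Its falls on differentiation are therefore given as a description in each treatment. COL6A1, a second chain of the same filament, had 7.06, 7.15 and 7.17 in embryoid bodies, against 8.12, 7.68 and 7.67 in pluripotent cells, a difference of −0.69 (SE 0.11). The third chain, COL6A2, fell by 0.45 (SE 0.08), so the 3 tested type VI genes were lower in embryoid bodies.

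The other falls were COL5A2 (−0.61) and COL1A1 (−0.52) among fibrillar genes, COL9A3 (−0.49), a type IX chain of cartilage, COL18A1 (−0.49), the source of endostatin, COL26A1 (−0.46) and COL23A1 (−0.23), which encodes a transmembrane collagen. COL23A1 lost its call without untransduced embryoid body replicate 1 (adjusted p = 0.051 by limma). With all 18 arrays, COL23A1, COL4A6, COL5A2 and COL6A3 kept the same differences but not the call.

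All 4 tested type IV genes rose in untransduced cells. COL4A1 and COL4A2, which form the network common to nearly all basement membranes, rose by 0.33 (SE 0.08) and 0.53 (SE 0.07). COL4A1 had 6.86, 6.81 and 6.88 in untransduced embryoid bodies, against 6.67, 6.48 and 6.42 in pluripotent cells. COL4A2 had 7.44, 7.24 and 7.42 in untransduced embryoid bodies, against 6.90, 6.81 and 6.80 in pluripotent cells. Neither gene's groups overlapped. COL4A5 and COL4A6, which contribute to more specialised basement membranes, rose by 0.59 (SE 0.09) and 0.61 (SE 0.09). COL4A6 had 6.47, 6.19 and 6.18 in untransduced embryoid bodies, against 5.63, 5.71 and 5.67 in pluripotent cells, again apart.

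The connective tissue chains COL1A2 and COL3A1 did not pass in untransduced cells. COL1A2, of type I collagen, had 7.99, 7.99 and 7.91 in untransduced embryoid bodies, against 8.21, 7.95 and 7.79 in pluripotent cells (−0.02, SE 0.10). COL3A1, of type III collagen, had 5.42, 5.27 and 5.43 in untransduced embryoid bodies, against 5.33, 5.66 and 5.47 in pluripotent cells (−0.12, SE 0.13). Both genes had overlapping ranges.

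With the control shRNA the fibrillar genes COL1A2 and COL3A1 were among those that rose, while COL1A1 fell. In this comparison 9 collagens rose and 9 fell (56.2% of 32, beside 48.3% of all genes, 23.1% higher and 25.2% lower), with medians of 0.05 for collagens and −0.02 for all genes. Of the 10 tested fibrillar genes 5 rose and 2 fell, whereas 2 rose and 2 fell without transduction. The direct test of this difference, given further on, called 2 of the 10 higher and 2 lower with the control shRNA. Of all genes 8.26% were higher and 8.61% lower there, and COL3A1 was not called. COL1A2 encodes a chain of type I collagen, the fibril of bone, skin and tendon. It had 8.97, 9.02 and 9.07 in control shRNA embryoid bodies, against 8.01, 8.23 and 8.25 in control shRNA pluripotent cells. All embryoid body arrays lay above all pluripotent ones (58.8% of all genes had separate groups), and the gene rose by 0.85 (SE 0.10, adjusted p = 2.89e-06 by limma).

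COL11A2, the partner chain of COL11A1 in type XI collagen, showed the largest rise with the control shRNA, 1.11 (SE 0.21). Its log2 intensities were 7.12, 7.19 and 7.76 in embryoid bodies, against 6.39, 5.99 and 6.37 in pluripotent cells. With the mean over its probe sets, the rise was 0.82. COL4A5 had 6.87, 6.84 and 6.78 in embryoid bodies, against 5.94, 6.15 and 6.06 in pluripotent cells, and rose by 0.78 (SE 0.09). COL3A1, the chain of type III collagen of soft connective tissue, had 6.50, 6.56 and 6.40 in embryoid bodies, against 6.36, 6.09 and 5.93 in pluripotent cells. It rose by 0.36 (SE 0.13, adjusted p = 0.0283 by limma), a call lost with all 18 arrays (adjusted p = 0.059) and without any of the control shRNA embryoid body replicates 1 and 2 and pluripotent replicates 2 and 3 (0.26 to 0.35, adjusted p between 0.069 and 0.135). The remaining rises were COL2A1 (0.60), COL4A6 (0.59), COL9A1 (0.45), COL11A1 (0.32) and COL13A1 (0.24).

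The largest fall with the control shRNA was COL5A2, a chain of the type V collagen that starts and limits fibrils. It had 5.63, 5.59 and 5.49 in embryoid bodies, against 6.34, 6.61 and 6.62 in pluripotent cells, a difference of −0.95 (SE 0.11) with the groups apart. COL14A1 had 6.76, 6.76 and 6.74 in embryoid bodies, against 7.35, 7.49 and 7.42 in pluripotent cells, a difference of −0.67 (SE 0.12). COL18A1 had 6.78, 6.95 and 6.95 in embryoid bodies, against 7.47, 7.62 and 7.26 in pluripotent cells, a difference of −0.55 (SE 0.09). In each of these genes the ranges were separate. The other falls were COL6A1 (−0.49), COL6A3 (−0.42), COL26A1 (−0.39), COL1A1 (−0.30), COL6A2 (−0.24) and COL4A1 (−0.22). With all 18 arrays COL13A1, COL1A1, COL4A6 and COL6A3 lost the call (adjusted p between 0.061 and 0.457 by limma). COL13A1 lost it as well without any of the 3 control shRNA embryoid body arrays or pluripotent replicates 2 and 3 (0.20 to 0.26), and COL6A2 without embryoid body replicates 1 or 3 or pluripotent replicates 1 or 2 (−0.24 to −0.19).

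Of the first type IV pair, COL4A1 was called with the control shRNA and COL4A2 was not, and the difference between the 2 genes was not tested. COL4A1 had 7.24, 7.35 and 7.35 in control shRNA embryoid bodies, against 7.40, 7.63 and 7.57 in pluripotent cells. Its fall of 0.22 had an adjusted p of 0.0398 (limma) and was lost in a fit with the replicate block (adjusted p = 0.053), without a filter on low values, with only the groups compared, with an intensity trend, with all 18 arrays (adjusted p = 0.091) and without any of the 3 embryoid body arrays or pluripotent replicates 2 and 3 (−0.24 to −0.17). COL4A2 had 7.32, 7.41 and 7.32 in embryoid bodies, against 7.30, 7.29 and 7.27 in pluripotent cells, a difference of 0.07 (SE 0.07) that did not pass. COL4A5 and COL4A6 differed by 0.78 and 0.59, both called.

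With the KBTBD8 shRNA, read on 2 arrays a state, 8 collagens rose and 3 fell (34.4% of 32, beside 38.5% of all genes, 17.3% higher and 21.1% lower), with medians of 0.14 and 0.00. With all 18 arrays and labels as given, 0 of 14209 genes passed, so each of these calls rests on reading the arrays numbered 2 apart. The 4 tested type IV genes rose. COL4A6 had 6.77 and 6.82 in KBTBD8 shRNA embryoid bodies, against 5.72 and 5.63 in pluripotent cells, a rise of 1.12 (SE 0.10, adjusted p = 4.16e-07 by limma). COL4A5 had 6.98 and 6.89 in embryoid bodies, against 6.06 and 6.12 in pluripotent cells, a rise of 0.85 (SE 0.11). The arrays numbered 2 lay the other way round: COL4A6 was 5.77 on the embryoid body array and 6.72 on the pluripotent one, and COL4A5 was 6.20 on the embryoid body array and 6.82 on the pluripotent one.

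COL9A1 had 7.42 and 7.44 in KBTBD8 shRNA embryoid bodies, against 6.93 and 6.76 in pluripotent cells, a rise of 0.59 (SE 0.12). COL6A3 had 5.26 and 4.88 in embryoid bodies, against 6.58 and 6.63 in pluripotent cells. Its fall of 1.53 (SE 0.14) was the largest change of a collagen with this shRNA. It is given as a description, since the gene entered the test largely through pluripotent cells. On the arrays numbered 2, COL6A3 was 6.71 under the embryoid body label and 5.04 under the pluripotent label. COL5A2 had 5.64 and 5.94 in embryoid bodies, against 6.53 and 6.77 in pluripotent cells, a difference of −0.86 (SE 0.13). COL1A1, the other chain of type I collagen, had 7.07 and 6.96 in embryoid bodies, against 7.59 and 7.41 in pluripotent cells, a difference of −0.48 (SE 0.10). The groups of these 4 genes were separate on the arrays kept, as were those of 68% of all genes.

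COL4A1 had 7.47 and 7.53 in KBTBD8 shRNA embryoid bodies, against 7.24 and 7.21 in pluripotent cells, a rise of 0.28 (SE 0.10). COL4A2 had 7.33 and 7.39 in embryoid bodies, against 7.06 and 7.15 in pluripotent cells, a rise of 0.25 (SE 0.09). Their ranges were separate, but both calls were lost in a fit with the replicate block (adjusted p = 0.059 for COL4A1 and 0.051 for COL4A2 by limma), without a filter on low values (0.066 and 0.060) and with an intensity trend (0.060 and 0.065). COL1A2 had 7.97 and 8.12 in embryoid bodies, against 7.87 and 7.92 in pluripotent cells (0.15, SE 0.12), and COL3A1 had 6.02 and 5.56 in embryoid bodies, against 5.83 and 5.69 in pluripotent cells (0.03, SE 0.16). Neither of them passed.

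The other rises with the KBTBD8 shRNA were COL27A1 (0.42), COL2A1 (0.39) and COL13A1 (0.30). COL13A1, COL4A1 and COL4A2 lost the call without either of the KBTBD8 shRNA pluripotent arrays and COL2A1 without pluripotent replicate 3 (0.28, adjusted p = 0.26 by limma), and all of these lost it when the fit held only the groups compared or without a filter on low values. COL13A1 lost it with an intensity trend as well. COL2A1, COL13A1, COL4A1 and COL4A2 also lost it without embryoid body replicate 1 (adjusted p = 0.255, 0.209, 0.093 and 0.080), and the last 2 without embryoid body replicate 3. Of the 11 collagens called, the pluripotent-labelled array numbered 2 lay nearer the embryoid body mean in 10, and the embryoid-body-labelled one nearer the pluripotent mean in 10, as in 92.5% and 93.9% of all genes called. Of the 21 collagens not called it was so in 15 and 14, and in 65.9% and 64.9% of all genes not called.

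The differentiation comparisons of the 3 treatments share no arrays. In all of them COL2A1, COL4A5, COL4A6 and COL9A1 rose and COL1A1, COL5A2 and COL6A3 fell, and 10 of the 32 tested collagens were called in none. These shares (12.5%, 9.38% and 31.2%) were near those of all genes, of which 10.2% rose in each, 12.2% fell in each and 29.9% were called in none. COL6A3 is counted among the falls although it entered the test largely through pluripotent cells. The type VI genes COL6A1 and COL6A2 fell in untransduced and control shRNA cells but differed by −0.04 (SE 0.14) and 0.01 (SE 0.10) with the KBTBD8 shRNA. The interaction that sets KBTBD8 shRNA differentiation against that of control shRNA cells gave 0.44 (adjusted p = 0.14) and 0.25 (adjusted p = 0.25 by limma), so a difference between treatments was not shown for either gene.

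**Figure D2:**
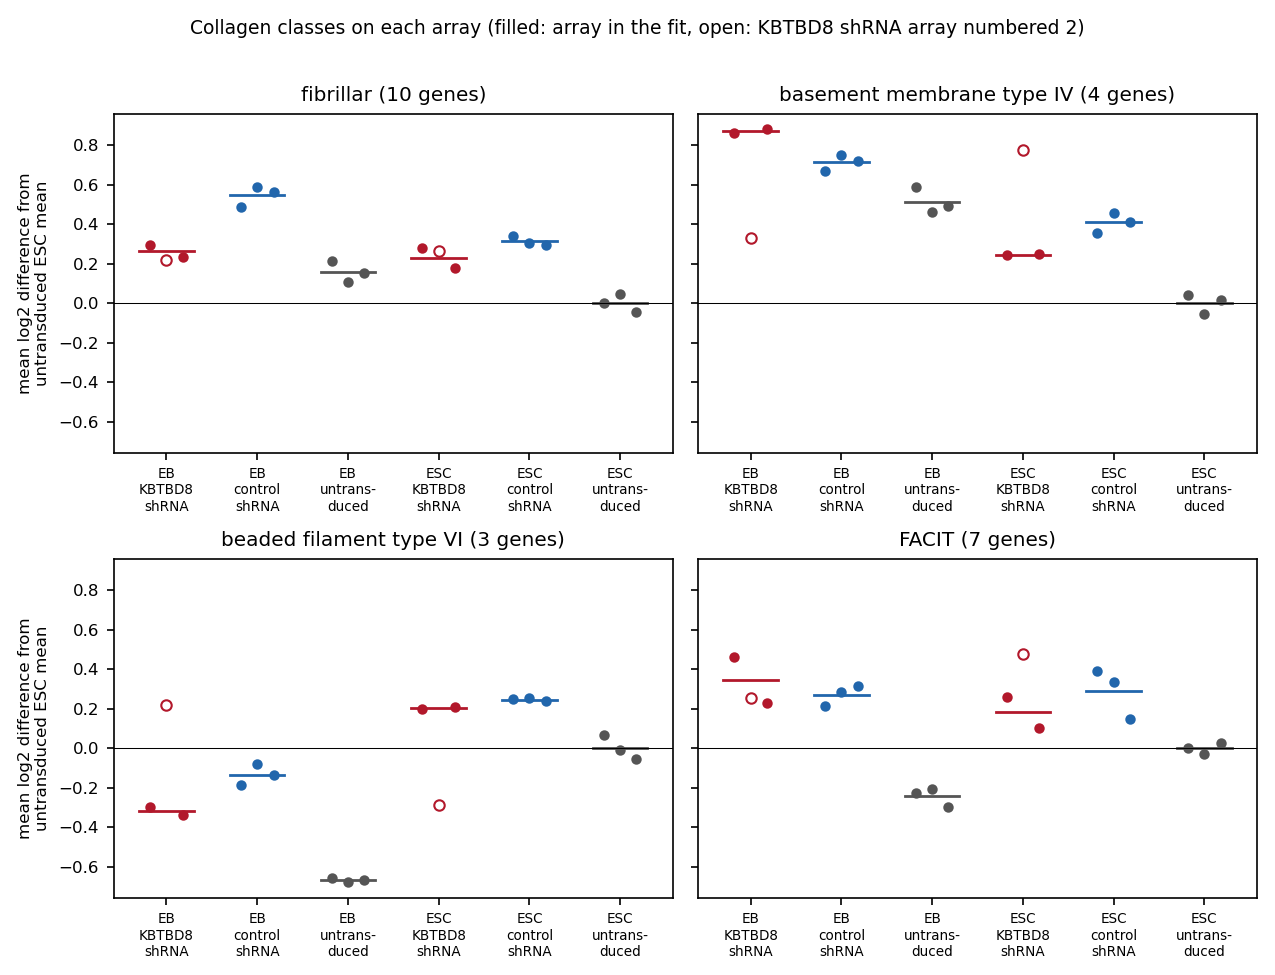
Mean log2 difference of each array from the mean of untransduced pluripotent cells, averaged over the tested members of 4 collagen classes, for each of the 6 groups. Filled points are arrays in the fit, open points the KBTBD8 shRNA arrays numbered 2, and bars group means. The mean of type IV lies higher and that of type VI lower in the embryoid bodies of each treatment, the open points being reversed. Members differ: with the KBTBD8 shRNA COL6A3 fell by 1.53 while COL6A1 and COL6A2 differed by −0.04 and 0.01. With the control shRNA 2 of 4 type IV genes rose and 1, COL4A1, fell. Fibrillar genes lie highest in control shRNA embryoid bodies (0.49, 0.59 and 0.56).

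Averaged by class, the fibrillar genes lay 0.49, 0.59 and 0.56 above the untransduced pluripotent mean in control shRNA embryoid bodies, against 0.22, 0.11 and 0.15 in untransduced embryoid bodies. Type IV lay at 0.86 and 0.88 in KBTBD8 shRNA embryoid bodies, against 0.67, 0.75 and 0.72 in control shRNA ones and 0.59, 0.46 and 0.49 in untransduced ones. Type VI lay at −0.30 and −0.34 in KBTBD8 shRNA embryoid bodies, against −0.19, −0.08 and −0.14 in control shRNA ones and −0.66, −0.68 and −0.66 in untransduced ones. Transduced pluripotent cells also lay above the untransduced pluripotent mean. With the control shRNA they had 0.34, 0.31 and 0.30 for fibrillar genes, 0.36, 0.46 and 0.41 for type IV and 0.25, 0.25 and 0.24 for type VI. With the KBTBD8 shRNA they had 0.28 and 0.18, 0.24 and 0.25, and 0.20 and 0.21. The offsets of transduced embryoid bodies are thus not changes with differentiation alone. A class mean is a summary of genes that did not all move together, as the type VI chains show further on.

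Control shRNA cells differed from untransduced cells in more collagens than any KBTBD8 comparison did. In embryoid bodies 19 collagens rose and 3 fell (68.8% of 32, beside 44.8% of all genes). Split by direction, 59.4% of collagens rose, beside 24.6% of all genes, and 9.38% fell, beside 20.2%. The median log2 difference was 0.39 for the collagens and 0.04 for all genes. The rises spread over classes, with 7 of 10 fibrillar, 4 of 7 FACIT, 3 of 3 type VI, 2 of 3 transmembrane and 1 of 4 type IV genes.

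The control comparison carries other differences that fall on the same groups. Median log2 intensity ran between 5.97 and 6.12 on the 12 transduced arrays, against 5.85 and 5.95 on the 6 untransduced ones, and whether the arrays were normalized together is not stated in the sources used here. In embryoid bodies the median difference of all genes was 0.16, 0.10, −0.01 and −0.07 from quartile 1 (lowest) to quartile 4 of mean intensity. The collagens lay in quartiles 1 to 3 (11, 12 and 9 members), with medians of 0.19, 0.55 and 0.42. After quantile normalization between arrays the collagen median was 0.25 and that of all genes −0.02, with 20 collagens called. For that count the share of all genes called after the same normalization is not given, so only the medians have a background. Transduction, shRNA and any difference in array processing cannot be told apart in this comparison.

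**Figure D3:**
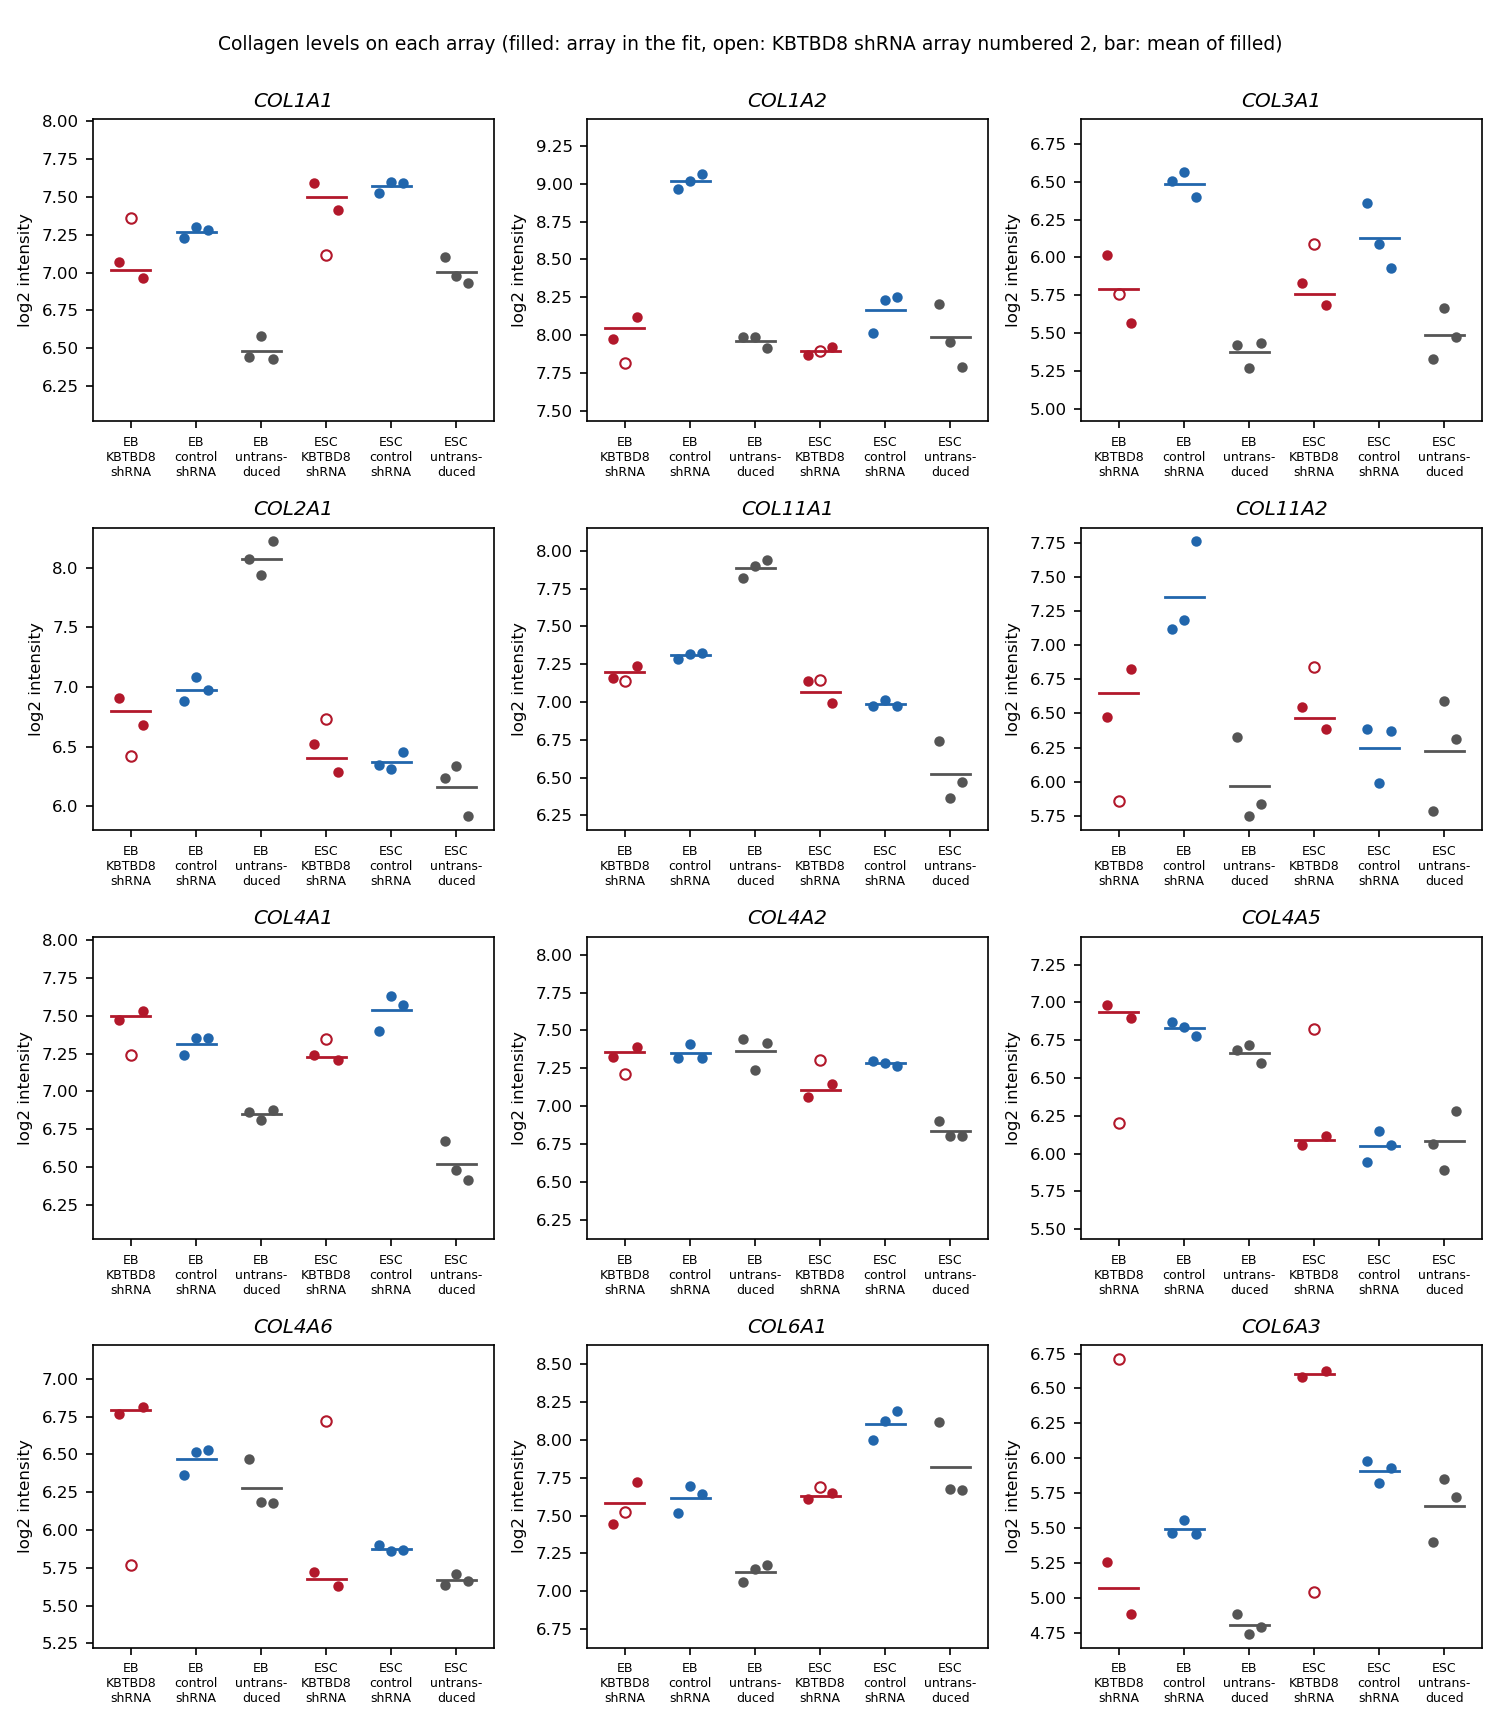
Log2 intensity of 12 collagens on each of the 18 arrays, by state (EB, embryoid body of 6 days; ESC, pluripotent) and treatment, with a separate axis for each gene. Filled points are arrays in the fit, open points the KBTBD8 shRNA arrays numbered 2, and bars the mean of filled points. COL1A2 and COL3A1 are highest in control shRNA embryoid bodies, and COL2A1 and COL11A1 in untransduced embryoid bodies.

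COL11A2 had 7.12, 7.19 and 7.76 in control shRNA embryoid bodies, against 6.33, 5.74 and 5.84 in untransduced ones, a rise of 1.39 (SE 0.21). COL14A1 had 6.76, 6.76 and 6.74 with the control shRNA, against 5.53, 5.69 and 5.57 in untransduced ones, a rise of 1.16 (SE 0.12). COL3A1 had 6.50, 6.56 and 6.40 with the control shRNA, against 5.42, 5.27 and 5.43 in untransduced ones, a rise of 1.11 (SE 0.13). In these 3 genes every control shRNA array lay above every untransduced one, and 59% of all genes had separate groups. COL1A2 had 8.97, 9.02 and 9.07 with the control shRNA, against 7.99, 7.99 and 7.91 in untransduced embryoid bodies, a 2.08-fold rise (1.06 on the log2 scale, SE 0.10, adjusted p = 6.01e-07 by limma). Its partner chain COL1A1 rose by 0.79 (SE 0.08).

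The other rises in embryoid bodies were COL9A3 (0.84), COL6A3 (0.68), COL9A2 (0.67), COL16A1 (0.58), COL23A1 (0.57), COL27A1 (0.53), COL5A3 (0.51), COL6A1 (0.49), COL4A1 (0.46), COL7A1 (0.45), COL6A2 (0.42), COL13A1 (0.35), COL18A1 (0.34) and COL5A1 (0.33). COL6A3 lost its call with all 18 arrays (adjusted p = 0.224 by limma). COL13A1, COL18A1 and COL5A1 lost theirs after quantile normalization (0.18, 0.23 and 0.15), and COL5A1 also without control shRNA replicate 2 (adjusted p = 0.051). COL4A2 differed by −0.02 (SE 0.07), with 7.32, 7.41 and 7.32 in control shRNA embryoid bodies and 7.44, 7.24 and 7.42 in untransduced ones, which overlap.

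COL2A1, COL11A1 and COL10A1 were the 3 collagens called lower. COL2A1 had 6.88, 7.08 and 6.98 in control shRNA embryoid bodies, against 8.07, 7.94 and 8.22 in untransduced ones, a difference of −1.10 (SE 0.11). COL11A1 had 7.28, 7.32 and 7.32 with the control shRNA, against 7.82, 7.90 and 7.94 in untransduced ones, a difference of −0.58 (SE 0.09). COL10A1, a short chain collagen of hypertrophic cartilage, had 4.96, 4.92 and 4.56 with the control shRNA, against 5.06, 5.43 and 5.21 in untransduced ones, a difference of −0.42 (SE 0.14). All 3 genes had separate ranges. COL10A1 reached the 40th percentile on 3 arrays, all untransduced, so it entered the test through the treatment in which it is high, and its fall is given as a description. It lost its call without untransduced replicate 2 (−0.32, adjusted p = 0.112), untransduced replicate 3 (−0.43, adjusted p = 0.055) or control shRNA replicate 3 (−0.30, adjusted p = 0.132 by limma).

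In pluripotent cells 13 collagens rose with the control shRNA and 0 fell (40.6% of 32, beside 29.1% of all genes). At an unadjusted p under 0.05, 22 of the 32 passed in either direction (68.8%, beside 40.8% of all genes). Of all genes 17% rose and 12.1% fell, and the medians were 0.27 and 0.04. COL4A1 had 7.40, 7.63 and 7.57 in control shRNA pluripotent cells, against 6.67, 6.48 and 6.42 in untransduced ones, a 2.02-fold rise (1.01, SE 0.08, adjusted p = 2.3e-06 by limma). COL4A2 had 7.30, 7.29 and 7.27 with the control shRNA, against 6.90, 6.81 and 6.80 in untransduced ones, a rise of 0.45 (SE 0.07). Both type IV partners were thus separate from the untransduced arrays, while COL4A5 (−0.03) and COL4A6 (0.21) did not pass.

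COL3A1 had 6.36, 6.09 and 5.93 in control shRNA pluripotent cells, against 5.33, 5.66 and 5.47 in untransduced ones, a rise of 0.64 (SE 0.13). COL14A1 had 7.35, 7.49 and 7.42 with the control shRNA, against 7.17, 6.49 and 6.71 in untransduced ones, a rise of 0.63 (SE 0.12). Neither gene's ranges met, and 39.2% of all genes had separate groups. COL1A2 had 8.01, 8.23 and 8.25 with the control shRNA, against 8.21, 7.95 and 7.79 in untransduced ones, and its ranges overlapped (0.18, SE 0.10, adjusted p = 0.19 by limma). The other rises were COL1A1 (0.57), COL11A1 (0.46), COL27A1 (0.44), COL18A1 (0.41), COL9A3 (0.41), COL16A1 (0.39), COL7A1 (0.35), COL23A1 (0.31) and COL22A1 (0.28).

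COL16A1, COL22A1, COL23A1 and COL7A1 lost their call with all 18 arrays (adjusted p = 0.059, 0.116, 0.051 and 0.114 by limma). Without control shRNA pluripotent replicate 1, COL16A1, COL22A1, COL7A1 and COL9A3 lost theirs (0.33, 0.21, 0.28 and 0.36), and without untransduced pluripotent replicate 1, COL16A1, COL22A1 and COL7A1 did (0.29, 0.28 and 0.26). COL22A1 lost it as well without untransduced replicate 3 (0.25) or control shRNA replicate 2 (0.27), and COL9A3 without control shRNA replicate 2 (0.37). In both states 10 collagens (31.2%, beside 9.14% of all genes) rose with the control shRNA, namely COL14A1, COL16A1, COL18A1, COL1A1, COL23A1, COL27A1, COL3A1, COL4A1, COL7A1 and COL9A3.

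The response to differentiation itself differed between control shRNA and untransduced cells in 6 collagens (2 higher and 4 lower, 18.8% of 32, beside 16.9% of all genes, 8.26% higher and 8.61% lower). The change was higher with the control shRNA for COL11A2 (1.37, SE 0.30) and COL1A2 (0.88, SE 0.14). It was lower for COL2A1 (−1.31, SE 0.16), COL11A1 (−1.04, SE 0.13), COL4A1 (−0.55, SE 0.12) and COL4A2 (−0.46, SE 0.11) (adjusted p between 2.65e-05 and 0.00626 by limma). The 2 chains of type XI collagen therefore went in opposite directions in this test.

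**Figure D4:**
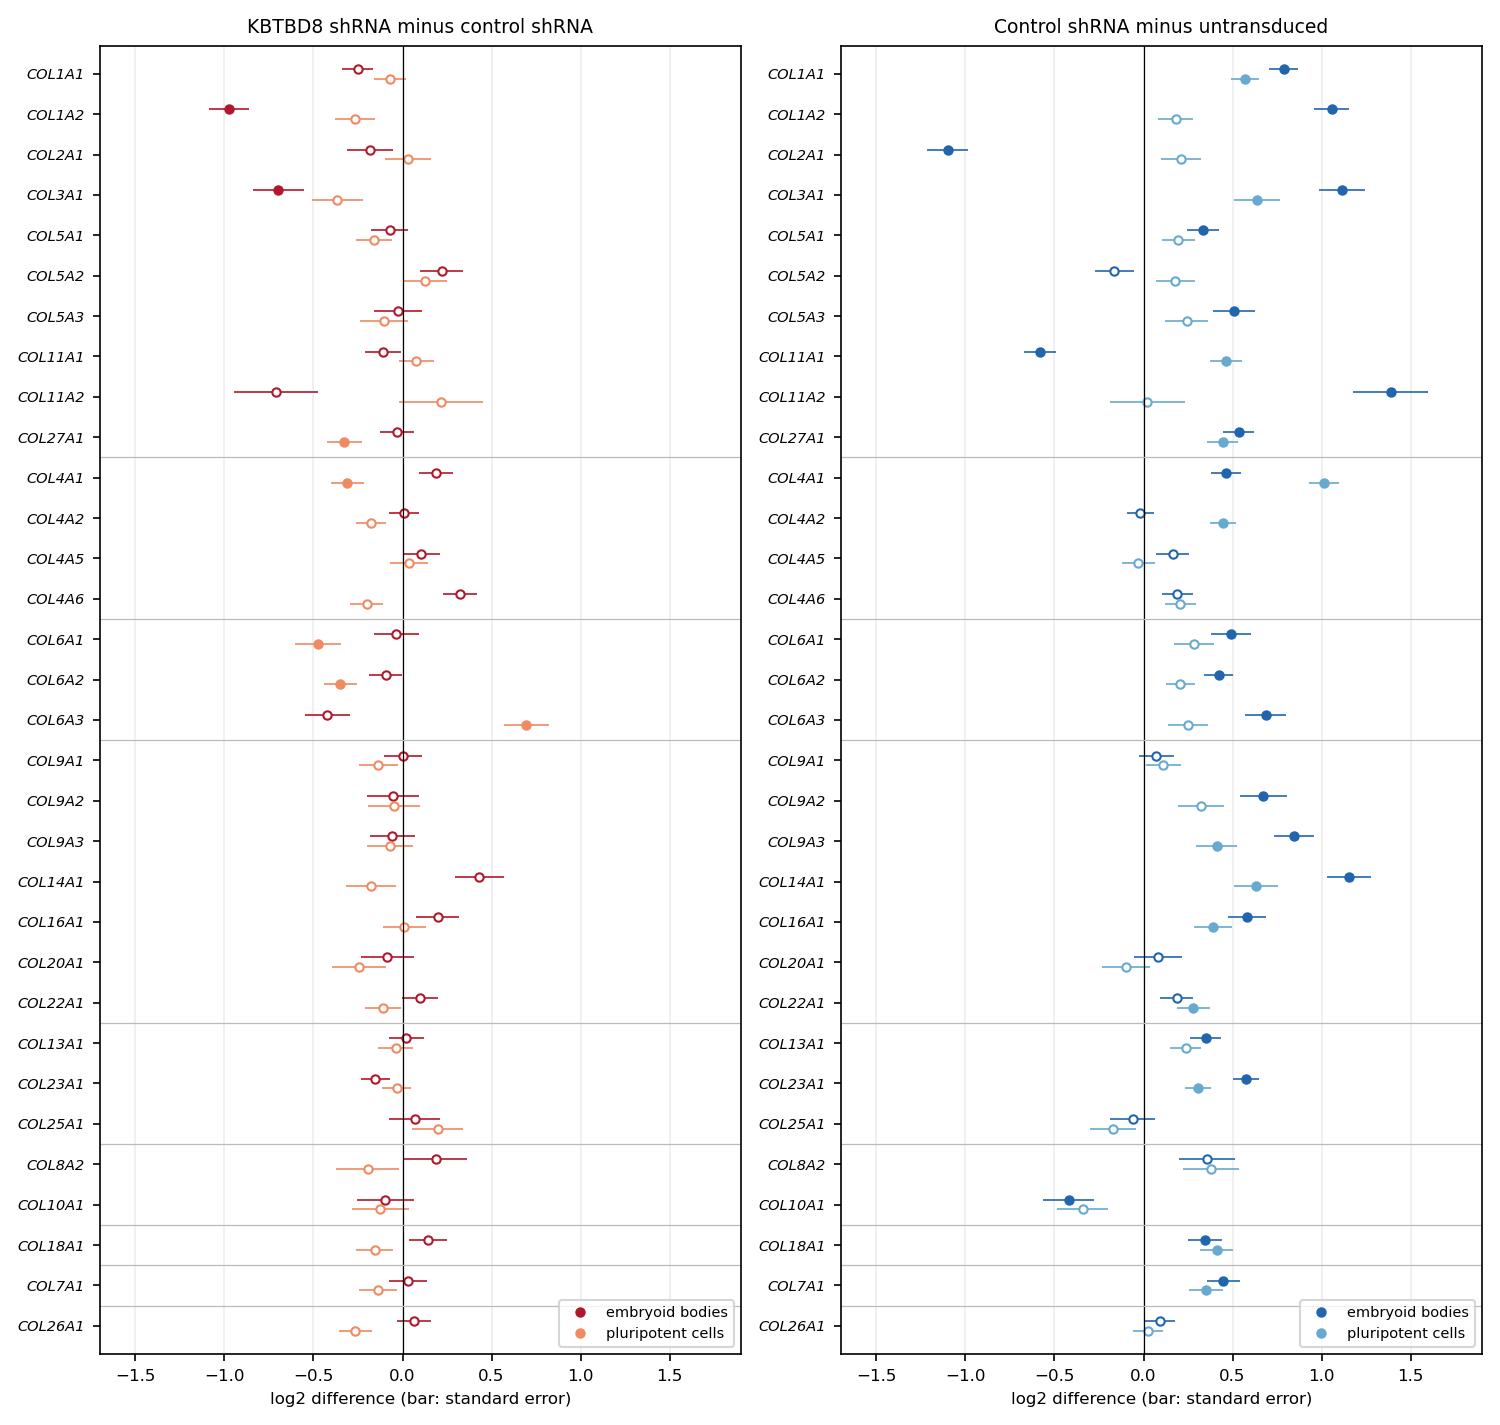
Log2 differences of the 32 tested collagens for KBTBD8 shRNA minus control shRNA (left) and control shRNA minus untransduced (right), in embryoid bodies (dark) and pluripotent cells (light). Points are fitted differences of the 16-array fit, bars are standard errors, and filled points had an adjusted p under 0.05. COL1A2 lies at −0.97 on the left and at 1.06 on the right in embryoid bodies, and the control shRNA arrays are shared by both panels.

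Against the control shRNA, 2 fibrillar collagens fell with the KBTBD8 shRNA in embryoid bodies, COL1A2 and COL3A1, and 0 rose (6.25% of 32, beside 5.8% of all genes, 2.84% higher and 2.96% lower). At an unadjusted p under 0.05, 7 of the 32 passed in either direction (21.9%, beside 16.2% of all genes). The medians were −0.03 for the collagens and 0.00 for all genes, and the share called was near the background. COL1A2 had 7.97 and 8.12 in KBTBD8 shRNA embryoid bodies, against 8.97, 9.02 and 9.07 in control shRNA ones, a 1.96-fold fall (−0.97, SE 0.11, adjusted p = 2.82e-05 by limma). COL3A1 had 6.02 and 5.56 in KBTBD8 shRNA embryoid bodies, against 6.50, 6.56 and 6.40 in control shRNA ones, a difference of −0.70 (SE 0.14, adjusted p = 0.0059 by limma). No array of one group reached the other in either gene (35.2% of all genes had separate groups), and with all 18 arrays both calls held (−1.05 and −0.71). The embryoid-body-labelled array numbered 2 that enters there was at 7.82 for COL1A2 and 5.76 for COL3A1. As that array looks exchanged with a pluripotent one, the 18-array fit is not a check on embryoid bodies. Without KBTBD8 shRNA replicate 3, COL3A1 was at −0.47 and no longer called (adjusted p = 0.147 by limma).

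The same control shRNA arrays enter the comparison with untransduced cells, so the 3 treatments are given side by side. COL1A2 was at 7.97 and 8.12 in KBTBD8 shRNA embryoid bodies, at 8.97, 9.02 and 9.07 in control shRNA ones and at 7.99, 7.99 and 7.91 in untransduced ones. The control shRNA arrays lay above those of both other treatments, which overlapped each other. COL3A1 was at 6.02 and 5.56 in KBTBD8 shRNA embryoid bodies, at 6.50, 6.56 and 6.40 in control shRNA ones and at 5.42, 5.27 and 5.43 in untransduced ones, so the KBTBD8 shRNA arrays lay between the other groups. COL11A2 had 6.47 and 6.83 with the KBTBD8 shRNA, against 7.12, 7.19 and 7.76 with the control shRNA, and its difference of −0.71 (SE 0.24) did not pass (adjusted p = 0.10 by limma).

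The type IV genes were not called in this comparison. COL4A1 had 7.47 and 7.53 in KBTBD8 shRNA embryoid bodies, against 7.24, 7.35 and 7.35 in control shRNA ones (0.19, SE 0.09, adjusted p = 0.36 by limma). COL4A2 had 7.33 and 7.39 with the KBTBD8 shRNA, against 7.32, 7.41 and 7.32 in control shRNA ones (0.01, SE 0.08). COL4A6 (0.32) and COL4A5 (0.11) were also short of the threshold. After quantile normalization between arrays, 5 collagens were called here, 2 higher and 3 lower. The share of all genes called after that normalization is not given here, so this count has no background beside it.

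In pluripotent cells the chains of type VI collagen went in different directions with the KBTBD8 shRNA. COL6A3 had 6.58 and 6.63 in KBTBD8 shRNA cells, against 5.98, 5.82 and 5.93 in control shRNA cells, a rise of 0.69 (SE 0.13, adjusted p = 0.00183 by limma). COL6A1 had 7.61 and 7.65 with the KBTBD8 shRNA, against 8.00, 8.12 and 8.19 in control shRNA cells, a difference of −0.47 (SE 0.13). COL6A2 fell by 0.35 (SE 0.09), with 7.26 and 7.21 in KBTBD8 shRNA cells, against 7.62, 7.67 and 7.45 in control shRNA cells. In these 3 genes the groups did not overlap, as in 45.4% of all genes. In all, 1 collagen rose and 4 fell (15.6% of 32, beside 14% of all genes, 8.43% higher and 5.58% lower), and the medians were −0.13 and −0.01.

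The calls of COL6A1 and COL6A2 held with all 18 arrays (−0.45 and −0.34), while COL6A3 was then at 0.17 (adjusted p = 0.871 by limma). The remaining falls were COL27A1 (−0.33), a fibrillar collagen of cartilage, and COL4A1 (−0.31). COL27A1 had 6.32 and 6.27 in KBTBD8 shRNA cells, against 6.70, 6.68 and 6.50 in control shRNA cells. COL4A1 had 7.24 and 7.21 with the KBTBD8 shRNA, against 7.40, 7.63 and 7.57 in control shRNA cells. Both had separate ranges, and both lost the call with all 18 arrays (−0.20 and −0.27), in a fit with the replicate block (−0.29 and −0.30) and without any filter on low values (adjusted p = 0.056 and 0.060 by limma).

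The connective tissue chains were not called in pluripotent cells. COL1A2 had 7.87 and 7.92 with the KBTBD8 shRNA, against 8.01, 8.23 and 8.25 with the control shRNA (−0.27, adjusted p = 0.13 by limma). COL3A1 had 5.83 and 5.69 with the KBTBD8 shRNA, against 6.36, 6.09 and 5.93 with the control shRNA (−0.37, adjusted p = 0.10). COL4A2 had 7.06 and 7.15 with the KBTBD8 shRNA, against 7.30, 7.29 and 7.27 with the control shRNA (−0.18, adjusted p = 0.18). Their ranges were separate, without passing the threshold.

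With only 2 arrays in the KBTBD8 shRNA group these calls are fragile. Without pluripotent KBTBD8 shRNA replicate 1, COL6A1 (−0.46), COL6A2 (−0.38), COL27A1 (−0.35) and COL4A1 (−0.33) were not called, and without replicate 3 the same 4 genes were not (−0.49, −0.32, −0.30 and −0.29). Without control shRNA replicate 2, COL6A1 (−0.47), COL6A2 (−0.30), COL27A1 (−0.30) and COL4A1 (−0.26) lost the call. Without control shRNA replicate 1, COL6A2 (−0.33) and COL27A1 (−0.29) did, and without control shRNA replicate 3, COL6A1 (−0.43) and COL4A1 (−0.29).

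The change with differentiation differed between KBTBD8 shRNA and control shRNA cells in 4 collagens (2 higher and 2 lower, 12.5% of 32, beside 9.87% of all genes, 3.74% higher and 6.12% lower). It was lower with the KBTBD8 shRNA for COL6A3 (−1.12, SE 0.18) and COL1A2 (−0.71, SE 0.16), and higher for COL4A6 (0.53, SE 0.13) and COL4A1 (0.50, SE 0.13). The value of COL6A3 is given as a description, as its embryoid body values were among the low ones of the array. With all 18 arrays COL1A2 kept its call (−0.78, adjusted p = 0.011 by limma), COL6A3 was at −0.05, COL4A1 at 0.37 without a call, and COL4A6 changed sign to −0.16. That fit holds the arrays that look exchanged under their labels as given, so a call kept there is not a check. COL1A2 lost the call without KBTBD8 shRNA embryoid body replicate 1 (−0.63, adjusted p = 0.052). COL4A6 lost it without control shRNA embryoid body replicate 1, KBTBD8 shRNA embryoid body replicates 1 or 3 or KBTBD8 shRNA pluripotent replicate 3 (0.47 to 0.55). COL4A1 lost it without any of the 4 KBTBD8 shRNA arrays, control shRNA embryoid body replicate 1 or control shRNA pluripotent replicates 2 or 3 (0.45 to 0.53).

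Genes that make, trim, bind or remove collagen were called in both directions. Among 21 tested genes of collagen synthesis and folding, 4 rose and 5 fell with differentiation in untransduced cells, where 25.8% of all genes rose and 26.3% fell. P4HA1, a catalytic subunit of the prolyl hydroxylase that stabilises the triple helix, rose by 1.86, while P3H2, which hydroxylates other prolines, fell by 2.86, PLOD2, a lysyl hydroxylase, by 1.50 and CREB3L1, a transcription factor of collagen secretion, by 1.32. In control shRNA cells 4 rose and 7 fell on differentiation (23.1% and 25.2% of all genes), with P4HA1 at 1.96, P4HA2 at 1.39, P3H2 at −1.19 and PLOD2 at −0.85. In KBTBD8 shRNA cells 3 rose and 7 fell (17.3% and 21.1% of all genes), with P4HA1 at 1.83 and P4HA2 at 1.38, and P3H2 at −1.05.

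Of 12 tested genes of propeptide processing and crosslinking, 3 rose and 6 fell in untransduced differentiation, and PCOLCE, an enhancer of procollagen C-proteinase, fell by 1.18. Of 8 receptors 2 rose and 3 fell, with ADGRG1, a receptor for type III collagen, at 2.69 and DDR2, a tyrosine kinase receptor for fibrillar collagen, at −0.83. Of 9 genes of collagen degradation 3 rose and 4 fell, with MMP14, a membrane-bound collagenase, at −1.74. Among 8 tested fibril partners 2 rose and 3 fell, with THBS2 at −1.65 and PRELP, a proteoglycan that binds fibrils, at 1.30. Of 11 basement membrane partners 3 rose and 4 fell, with the laminin chain LAMB1 at 1.45 and NID1, which bridges laminin and type IV collagen, at 1.17. In this untransduced comparison 25.8% of all genes rose and 26.3% fell.

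In the comparison of control shRNA with untransduced embryoid bodies, 11 of 21 synthesis genes rose and 2 fell, as did 5 and 1 of 12 processing genes, 2 and 1 of 8 receptors, 3 and 1 of 9 degradation genes, 6 and 0 of 8 fibril partners, and 9 and 1 of 11 basement membrane partners. Of all genes 24.6% rose and 20.2% fell there, and the receptors lay near those shares. LAMA4, a laminin chain of vessel and mesenchymal basement membranes, rose by 2.29, PRELP by 1.96, FMOD, which regulates fibril growth, by 1.27, and LOXL2, a crosslinking oxidase, by 1.09. In pluripotent cells, where 17% of all genes rose and 12.1% fell, 8 of 11 basement membrane partners rose and 0 fell, with LAMA1 at 0.59 and LAMB1 at 0.55, and 2 of 8 fibril partners rose, with FN1, fibronectin, at 1.76. Of the synthesis genes 5 rose and 2 fell, with PLOD3, a lysyl hydroxylase needed for type IV collagen, at 1.05.

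With the KBTBD8 shRNA against the control shRNA in embryoid bodies, each of these lists except the receptors had 2 genes that fell and 0 that rose, and 0 of 8 receptors were called (2.84% of all genes rose and 2.96% fell). Among them PRELP was at −2.48, LAMA4 at −1.83, TIMP3, an inhibitor of matrix proteases, at −1.26 and FMOD at −1.12. In pluripotent cells, with 8.43% of all genes higher and 5.58% lower, 1 synthesis gene rose and 2 fell, 1 processing gene fell (BMP1, the procollagen C-proteinase, at −0.44), DDR2 rose by 0.95, MMP9 rose by 0.73, FN1 fell by 0.66 and 0 of 11 basement membrane partners were called.

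Markers of other cell types moved with the same groups, and in bulk RNA fewer cells of a type and less RNA per cell cannot be told apart. The mean log2 intensity of 14 neural crest markers was 7.08 and 7.23 in KBTBD8 shRNA embryoid bodies, 8.21, 8.28 and 8.25 in control shRNA ones and 6.06, 5.99 and 6.02 in untransduced ones. Against untransduced embryoid bodies 12 of the 14 rose with the control shRNA and 0 fell, with TFAP2B at 4.95 and PAX3 at 4.55. Against the control shRNA 0 rose and 9 fell with the KBTBD8 shRNA, with ETS1 at −3.19 and SNAI2 at −2.52. Of all genes, 24.6% rose and 20.2% fell there with the control shRNA, and 2.84% and 2.96% with the KBTBD8 shRNA. Their part in the collagen differences was not tested.

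Pluripotency markers differed between the embryoid bodies too. Their mean was 8.58 and 8.64 in KBTBD8 shRNA embryoid bodies, 8.30, 8.29 and 8.28 in control shRNA ones and 7.67, 7.62 and 7.70 in untransduced ones. Of the 15 markers 5 rose and 0 fell with the KBTBD8 shRNA against the control shRNA (median 0.21), while in control shRNA against untransduced embryoid bodies 10 were higher and 2 lower by the test (median 0.56). In pluripotent cells 1 rose and 3 fell with the KBTBD8 shRNA against the control shRNA. There 6 were higher and 1 lower by the test in control shRNA against untransduced cells. All-gene shares in embryoid bodies were 2.84% higher and 2.96% lower with the KBTBD8 shRNA, and 24.6% and 20.2% with the control shRNA. In pluripotent cells they were 8.43% and 5.58%, and 17% and 12.1%.

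The mean of 9 endoderm and yolk sac markers was 5.62 and 5.32 in KBTBD8 shRNA embryoid bodies, 6.59, 6.56 and 6.53 in control shRNA ones and 5.04, 5.04 and 5.10 in untransduced ones. In pluripotent cells it was 5.50 and 5.49 with the KBTBD8 shRNA, 6.04, 5.94 and 6.04 with the control shRNA and 5.16, 5.25 and 5.25 without transduction. With the control shRNA against untransduced cells 6 of 9 rose in embryoid bodies and 7 of 9 in pluripotent cells, with AFP at 3.71 and 1.68, and 0 fell in either. With the KBTBD8 shRNA against the control shRNA 5 of 9 fell in each state, with AFP at −2.79 in embryoid bodies and TTR at −1.35 in pluripotent cells. All-gene shares with the control shRNA were 24.6% higher and 20.2% lower in embryoid bodies, and 17% and 12.1% in pluripotent cells. With the KBTBD8 shRNA they were 2.84% and 2.96%, and 8.43% and 5.58%.

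The mean of 14 mesenchyme markers was 5.72 and 5.60 in KBTBD8 shRNA embryoid bodies, 5.82, 5.80 and 5.93 in control shRNA ones and 5.56, 5.56 and 5.48 in untransduced ones. Of its 9 tested members 4 were higher and 2 lower by the test in control shRNA embryoid bodies against untransduced ones (24.6% and 20.2% of all genes). With the KBTBD8 shRNA against the control shRNA 0 rose and 1, PDGFRA, fell by 1.25 (2.84% of all genes rose and 2.96% fell). Of 8 tested cartilage markers 4 rose and 2 fell in untransduced differentiation (25.8% and 26.3% of all genes), with SOX5 at 3.82 and CNMD at −2.73. The control shRNA embryoid bodies, against untransduced ones, had 3 that rose and 1 that fell (24.6% and 20.2% of all genes), with HAPLN1 at 2.01. Of 9 endothelial markers 4 were tested. With the control shRNA against untransduced embryoid bodies 2 rose and 0 fell (24.6% and 20.2% of all genes), with KDR at 2.22. On differentiation 0 rose and 3 fell in untransduced cells (median −1.34), where 25.8% of all genes rose and 26.3% fell. In control shRNA cells 1 rose and 3 fell (median −1.21, 23.1% and 25.2% of all genes), and with the KBTBD8 shRNA 1 rose and 2 fell (17.3% and 21.1%). The part of these markers in the collagen differences was not tested.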

How the data were processed

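Total RNA from H1 cells was labelled with NuGEN kits and hybridised to 18 Affymetrix Human Gene 1.0 ST arrays. The authors deposited log2 intensities computed by GCRMA, per the submitters' processing notes (no version given). Base 2 was inferred from the method and the range of values. Background correction and summarization were not repeated, as scanner files were not used here. Of 33297 probe sets, 19460 had 1 gene symbol, 1754 several and 12083 none. A gene was represented by its one-symbol probe set with the highest mean.

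limma 3.58.1 in R 4.3.3 fitted 6 group means to each gene, with moderated variances and 10 residual degrees of freedom on 16 arrays (12 on 18). Benjamini-Hochberg adjustment ran over 14209 genes within each of 9 comparisons, and a gene was called at an adjusted p under 0.05. SE is the standard error of a log2 difference. The number of arrays limits the precision, and levels of different genes were not compared, since probe sets differ in response. The script was tested on simulated data. For untransduced and control shRNA groups, arrays with the same number did not deviate together (correlations between −0.38 and 0.05), and no replicate block was used in the values reported. Pairing of KBTBD8 shRNA arrays, of which 2 a state were kept, was not checked.

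The members and lists were chosen with earlier results of these data known. Values on each array are given for COL1A2, COL3A1, COL4A1 and COL4A2 and, in the first 7 comparisons, for the 3 largest called rises and falls, with other called members named and up to 4 genes per other list. Values of other members were chosen after they were seen. Alternatives were all 18 arrays, a replicate block, no filter or a 60th percentile filter, quantile normalization, only the groups compared, the mean over probe sets, an intensity trend with robust variances and leaving out each array. Figures were drawn with matplotlib 3.10.9.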

Additional observations from a re-analysis of the deposited data

Results flagged for a closer look

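Differentiation changed 10 collagen results differently between treatments, by the interaction test of limma over all genes. Between control shRNA and untransduced cells these were 18.8% of 32 collagens, beside 16.9% of all genes. Between KBTBD8 shRNA and control shRNA cells they were 12.5%, beside 9.87%. Between control shRNA and untransduced cells the difference was 1.37 for COL11A2 (adjusted p = 0.00451), 0.88 for COL1A2 (adjusted p = 0.000376), −1.31 for COL2A1 (adjusted p = 3.38e-05), −1.04 for COL11A1 (adjusted p = 2.65e-05), −0.55 for COL4A1 (adjusted p = 0.0043) and −0.46 for COL4A2 (adjusted p = 0.00626). Between KBTBD8 shRNA and control shRNA cells it was −0.71 for COL1A2 (adjusted p = 0.00937), 0.53 for COL4A6 (adjusted p = 0.0208) and 0.50 for COL4A1 (adjusted p = 0.0266 by limma). COL6A3, the remaining gene of these 12.5%, was at −1.12. Its value is given as a description, since the gene entered the test largely through pluripotent cells. With all 18 arrays COL6A3 was at −0.05 and COL4A1 at 0.37, neither called, and COL4A6 changed sign to −0.16. COL1A2 and COL4A1 appear in both sets, which share the control shRNA arrays.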

How the results depend on the processing

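With all 18 arrays and labels as given, 0 collagens were called in KBTBD8 shRNA differentiation (11 on 16 arrays), 2 in KBTBD8 shRNA against control shRNA pluripotent cells (5) and 2 in the interaction of KBTBD8 shRNA with differentiation (4), and COL4A6 in that interaction reversed to −0.16. Of 98 single calls, 66 held on 18 arrays and 31 were lost. Fitting only the groups compared gave 7 calls in KBTBD8 shRNA differentiation and 2 in KBTBD8 shRNA against control shRNA pluripotent cells, and no filter on low values gave 3 calls in that comparison of pluripotent cells. The 60th percentile filter, under which 19 collagens were tested, gave 13 calls for control shRNA against untransduced embryoid bodies (22). Quantile normalization gave 5 for KBTBD8 shRNA against control shRNA embryoid bodies (2). The replicate block gave 3 calls in KBTBD8 shRNA against control shRNA pluripotent cells (5), for which pairing by number was not checked, with 2 KBTBD8 shRNA arrays kept, and counts within 1.5 times elsewhere. The cause of these shifts was not tested, except that fewer genes or arrays entered where stated. Shares of all genes called are not given beside these counts. A lower count may therefore hold for all genes and is not a result about the collagens.

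Leaving out 1 array at a time gave 16 to 17 calls for untransduced differentiation, 14 to 17 for control shRNA differentiation, 7 to 10 for KBTBD8 shRNA differentiation, 21 to 23 and 9 to 16 for control shRNA against untransduced embryoid bodies and pluripotent cells, 1 to 3 for KBTBD8 shRNA against control shRNA in each state, and 6 to 8 and 1 to 4 for the interactions of control shRNA and KBTBD8 shRNA. KBTBD8 shRNA differentiation was at 7 without embryoid body replicate 1 or pluripotent replicate 3. The count for KBTBD8 shRNA against control shRNA embryoid bodies was 1 without KBTBD8 shRNA replicate 3. In pluripotent cells it was 2 and 1 without KBTBD8 shRNA replicates 1 and 3, and 3, 1 and 3 without control shRNA replicates 1, 2 and 3. The interaction of KBTBD8 shRNA was at 1 without KBTBD8 shRNA embryoid body replicate 1, and at 2 without control shRNA embryoid body replicate 1 or KBTBD8 shRNA pluripotent replicate 3. A lone KBTBD8 shRNA array is then assumed to vary like the other groups. Counts with an array left out also have no share of all genes beside them, so their shifts are not a result about the collagens. Other counts stayed within 1.5 times of the values reported under the remaining alternatives. No alternative other than the 18 arrays reversed a call.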
